A study of Mus musculus with 4 samples.

Results

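Promoter shores are the flanks of promoters, and here they were the CpG sites 1000 to 2000 bp from the nearest 5' end of a protein-coding gene. Sites were taken from autosomes, placed with the GENCODE vM1 annotation of mm9, and kept where at least 10 reads covered them in all 4 libraries. This left 20705 shore sites, 5.29% of the 391628 autosomal CpG sites with that coverage. Of these, 4047 lay upstream of the 5' end and 16658 downstream of it, next to 2866 genes. A shore of 1 gene on 1 side is called a gene shore below, and 1377 gene shores (287 upstream and 1090 downstream) held at least 5 covered sites.

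The methylomes came from mouse embryonic stem (ES) cells, profiled by reduced representation bisulfite sequencing (RRBS-seq). In RRBS-seq, DNA is cut with MspI at CCGG, and bisulfite turns unmethylated cytosines into uracils, so that the share of reads that keep a cytosine gives the methylation level. WT cells and Chr4-cl KO cells were each grown in serum (medium with FCS and LIF) or kept for a week in 2i medium with Vitamin C, which gave 4 groups. Chr4-cl KO cells lack a cluster of KRAB zinc finger protein (KRAB-ZFP) genes on chromosome 4. They were made with Cas9 and a pair of guide RNAs in ES cells of B6;129 mice that carry a cre/ERT allele at Gt(ROSA)26Sor, and single clones were picked. Each group was 1 library, so a difference between libraries has no replicate check, and effects of the clone, the library and the condition cannot be told apart. Below, 2i stands for 2i + Vitamin C.

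CpG islands are CpG-dense stretches at most mammalian promoters that stay free of DNA methylation, and their shores are the flanks where CpG density falls and methylation rises towards the level of the rest of the genome. Methylation is laid down de novo by DNMT3A and DNMT3B and copied after replication by DNMT1 with UHRF1. The kinase inhibitors of 2i medium and Vitamin C, a cofactor of the TET enzymes that oxidise methylcytosine, are known to lower methylation across the ES cell genome. KRAB-ZFPs bind DNA and bring in KAP1, a corepressor tied to H3K9 methylation at retrotransposons and imprinted regions.

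Stretches of 6 gene shores are printed because the comparisons below turn on them. They follow the plus strand of mm9, 5′ to 3′, with the covered CpG sites in capitals, and each is the stretch of up to 160 bp with most reads that overlaps no annotated UTR. Fat1 (chr8:46037456-46037562, coding exon) and Ccdc19 (chr1:174452758-174452910, intron) lost most methylation in 2i. Pilra (chr5:138279290-138279400, outside genes) had the highest 2i level by the lower of the WT and KO values. Dlgap4 (chr2:156440982-156441028, intron) was higher in KO cells in serum, Zfp629 (chr7:134758091-134758244, intron) lower in KO cells in serum, and Cfd (chr10:79354805-79354944, coding exon) lower in KO cells in 2i.
Fat1: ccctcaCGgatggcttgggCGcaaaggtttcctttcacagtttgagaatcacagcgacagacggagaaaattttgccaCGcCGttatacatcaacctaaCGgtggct
Ccdc19: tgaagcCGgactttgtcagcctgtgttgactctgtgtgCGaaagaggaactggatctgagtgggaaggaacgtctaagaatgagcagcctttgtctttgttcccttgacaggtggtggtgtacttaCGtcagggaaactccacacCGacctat
Pilra: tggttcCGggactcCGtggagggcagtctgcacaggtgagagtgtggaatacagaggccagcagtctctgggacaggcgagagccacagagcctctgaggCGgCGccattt
Dlgap4: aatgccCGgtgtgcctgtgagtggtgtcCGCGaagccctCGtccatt
Zfp629: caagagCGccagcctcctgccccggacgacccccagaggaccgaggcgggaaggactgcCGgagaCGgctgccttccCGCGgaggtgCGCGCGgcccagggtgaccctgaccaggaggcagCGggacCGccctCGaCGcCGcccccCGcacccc
Cfd: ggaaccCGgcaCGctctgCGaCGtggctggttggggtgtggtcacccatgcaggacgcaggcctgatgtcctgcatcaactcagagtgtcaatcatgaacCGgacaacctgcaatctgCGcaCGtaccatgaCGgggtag
CpG dinucleotides left in lower case were not covered by 10 reads in every library. The printed Zfp629 stretch holds 14 covered CpG sites and that of Ccdc19, of nearly the same length, 4.

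The 4 libraries held between 42684672 (KO 2i) and 90649194 (WT 2i) reads summed over CpG sites. The median coverage of shore sites was 60 reads in WT serum, 80 in KO serum, 99 in WT 2i and 44 in KO 2i. As a check of the labels, CpG sites within 250 kb of Gm13051, a KRAB-ZFP gene of the deleted cluster, had 19811 and 20255 reads in the WT libraries and 36 and 335 in the KO libraries. Nearly all shore sites (99.75%) lay within 50 bp of a CCGG. The libraries also stood apart at low levels in pairs that follow neither genotype nor medium. At 70 shore sites KO serum exceeded WT serum and WT 2i exceeded KO 2i by 20 points or more each, against 1 site with the reverse. Of the 70 sites, 24 lay exactly 6 bp from a CCGG and 8 lay 18 bp from one, distances that hold 2.23% and 2.16% of shore sites. Among shore sites under 10% in WT serum, those 6 bp from a CCGG averaged 1.87% in WT serum, 12.1% in KO serum, 7.99% in WT 2i and 1.09% in KO 2i. Among these low sites KO serum averaged above WT serum at each distance examined, from 0 to 46 bp, and WT 2i above KO 2i at most of them. The size varied, and those 33 bp from a CCGG averaged 1.63% in WT serum, 2.58% in KO serum, 1.02% in WT 2i and 1.27% in KO 2i. Those 46 bp from a CCGG averaged 1.86% in WT serum, 6.29% in KO serum, 4.76% in WT 2i and 0.884% in KO 2i. Such sites stay in the counts given below without sites 6 or 18 bp from a CCGG. The deposited tables of WT serum and KO 2i were each made of joined tables, and the other two were single tables. With rows of the first table alone, gains in KO serum stayed at 341 sites and losses in KO 2i at 82. The second tables held 59 (WT serum) and 54 (KO 2i) rows with at least 10 reads, so this check could change few sites. Counts between genotypes and between media are also given without sites 6 or 18 bp from a CCGG, and the part of the library differences at other sites was not tested.

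The first question was how methylated shores are, and whether the sides of the 5' end differ. Mean methylation of the upstream shore was 23.7% in WT serum, 28.0% in KO serum, 10.7% in WT 2i and 8.69% in KO 2i. The downstream shore averaged 11.88%, 14.97%, 5.58% and 4.12% in the same libraries. The upstream shore was thus the higher in each of the 4 libraries, by 11.8 points in WT serum. For comparison, sites under 1000 bp from a 5' end averaged 3.07% in WT serum, sites from 2000 to 5000 bp 32.4% and all autosomal sites 27.2%. The means come from unequal sites: the median shore site was at 2.27% in WT serum, 3.94% in KO serum, 2.17% in WT 2i and 0.752% in KO 2i. In WT serum 80.7% of shore sites were under 20% methylated and 6.58% at 80% or more.

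Methylation rose across the shore. In WT serum, downstream sites went from 7.55% at 1000 to 1100 bp to 20.8% at 1900 to 2000 bp, and upstream sites from 17.4% to 32.4%. Between the first and last 250 bp of the shore the rise was 15.2 points upstream and 11.1 points downstream. At 2000 to 2250 bp the levels were 34.2% upstream and 24.3% downstream. In the plot of methylation against distance, the upstream curve in serum leaves the low promoter level nearer to the 5' end than the downstream curve.

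**Figure D1:**
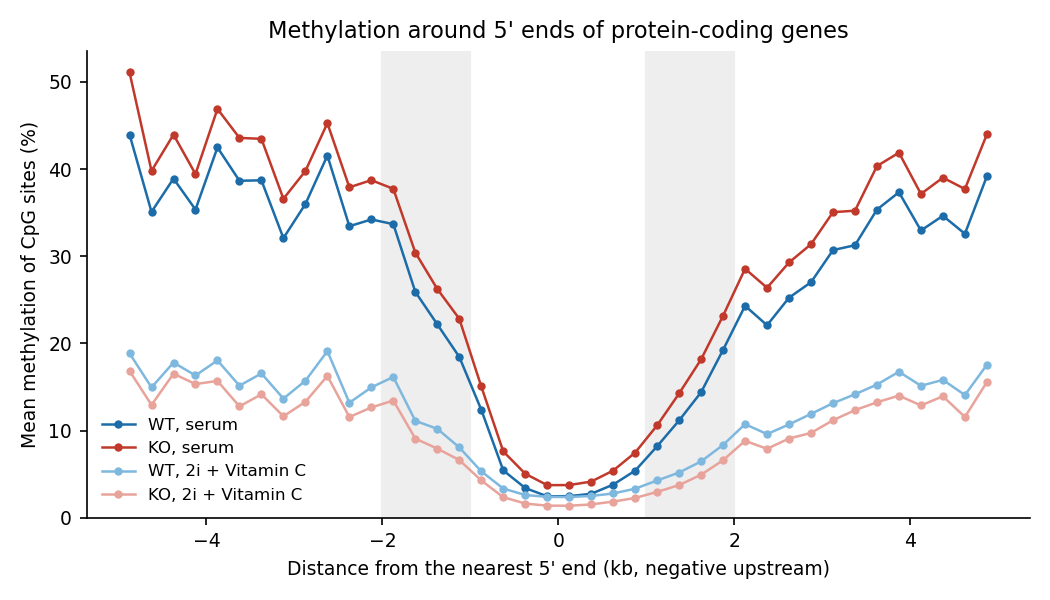
Mean methylation (%, y axis) of CpG sites in 250-bp classes by distance from the nearest 5' end of a protein-coding gene (kb, x axis, negative upstream), with 1 line for each of the 4 libraries and shores shaded. In WT serum the upstream shore rises from 18.5% to 33.7% and the downstream shore from 8.21% to 19.3%, while both lines in 2i stay well under the serum lines there.

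CpG density separated high from low shore sites more than the side did. Density was taken as the observed over expected number of CpG dinucleotides within 250 bp of a site on either side. Upstream shore sites had a median ratio of 0.601 and downstream sites 0.759. In WT serum, shore sites with a ratio of 0.2 to 0.4 averaged 53.1%, those of 0.4 to 0.6 averaged 23.7%, those of 0.6 to 0.8 averaged 5.25% and those over 0.8 averaged 2.26%. At equal density the sides were closer. Sites of 0.2 to 0.4 averaged 58.1% upstream and 50.6% downstream, sites of 0.4 to 0.6 averaged 27.5% and 22.3%, and sites over 0.8 averaged 1.92% and 2.30%, so that the order turned in the densest class. Among 53 genes with a gene shore on both sides, the upstream one was the higher in 27 in WT serum, with a median difference of 0.217 points.

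Annotation differed between the sides as well. Another transcript had its 5' end within 1000 bp of 46.5% of downstream and 10.6% of upstream shore sites. Downstream sites near such a start averaged 6.57% in WT serum and the other downstream sites 16.5%, and the upstream values were 14.9% and 24.7%. Without sites near another start the sides differed by 8.24 points. Of the downstream sites, 46.0% lay in introns (mean 10.4% in WT serum) and 38.3% in coding exons (15.3%). Of the upstream sites, 72.8% lay outside genes (21.6%), and the 13.4% in coding exons, which belong to neighbouring or overlapping genes, averaged 31.9%.

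**Figure D2:**
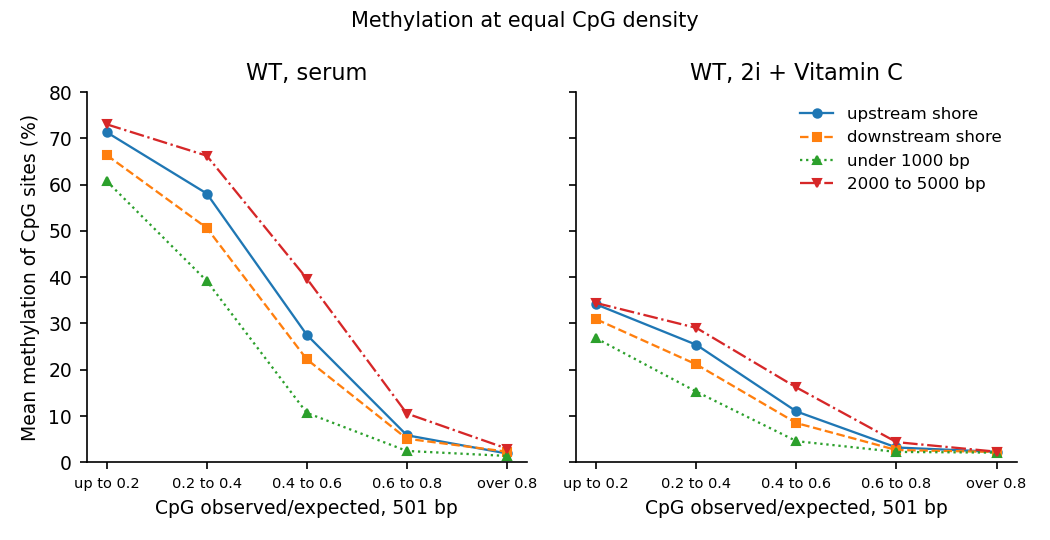
Mean methylation (%, y axis) of CpG sites by class of CpG observed over expected ratio (x axis) in WT cells, in serum (left) and 2i (right), with a line each for the upstream shore, the downstream shore, sites under 1000 bp and sites from 2000 to 5000 bp. In each class both shores lie between the nearer and the farther sites, for example 58.1% and 50.6% between 39.2% and 66.2% at 0.2 to 0.4 in serum.

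The next comparison asked how shores respond to 2i. Shores lost methylation in both genotypes. The mean over shore sites went from 14.2% to 6.58% in WT cells, a change of -7.62 points, and from 17.5% to 5.01% in KO cells, a change of -12.5 points. A site was called where Fisher's exact test on its reads had an adjusted p under 0.05 (Benjamini-Hochberg over all 391628 sites) and the change reached 20 points. By this rule 3061 shore sites (14.8%) lost methylation in WT cells, where 26.1% of all sites tested did, and 3934 of the 20705 in KO cells, where 29.5% of all sites did. Without sites 6 or 18 bp from a CCGG these losses were 2958 and 3719. Gains were called at 44 shore sites in WT cells (0.2125%, against 0.146% of all sites) and 2 in KO cells (0.00966%, against 0.0281% of all sites). These tests compare pairs of libraries, not conditions, and neighbouring sites share reads, so the p-values are too small.

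Losses are given by the level in WT serum, whose reads also enter the WT comparison. The 1363 shore sites at 80% or more in WT serum averaged 89.8% there, 43.7% in WT 2i, 90.4% in KO serum and 37.7% in KO 2i. The 2624 sites between 20% and 80% went from 46.8% to 14.2% in WT and from 57.4% to 11.2% in KO cells. The 16718 sites under 20% averaged 2.92% in WT serum and 2.36% in WT 2i, but 5.30% and 1.39% in the KO libraries. The share of the serum level that remained in WT 2i was 48.7% for the highest class and 30.3% for the middle class. Over all autosomal sites these shares were 54.4% and 29.8%. A loss was called in WT cells at 89.8% of shore sites and 77.97% of all sites in the highest class. In the middle class it was called at 70.0% and 77.3%. Sites under 20% in WT serum cannot lose 20 points in WT cells, and they were 80.7% of shore sites and 66.4% of all sites. In 2i, 11 shore sites of 8 genes were at 80% or more in both genotypes, against 1273 in both serum libraries, and 290 were at 50% or more, against 2459.

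The 44 sites that gained in WT 2i had a median of 1.43% in WT serum and 31.8% in WT 2i. In KO serum their median was 33.8% and in KO 2i 0%, and all 44 were higher in KO serum than in WT serum and lower in KO 2i than in WT 2i. Of these sites 25 lay 6 or 18 bp from a CCGG, and without sites at those distances 19 gains were called.

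**Figure D3:**
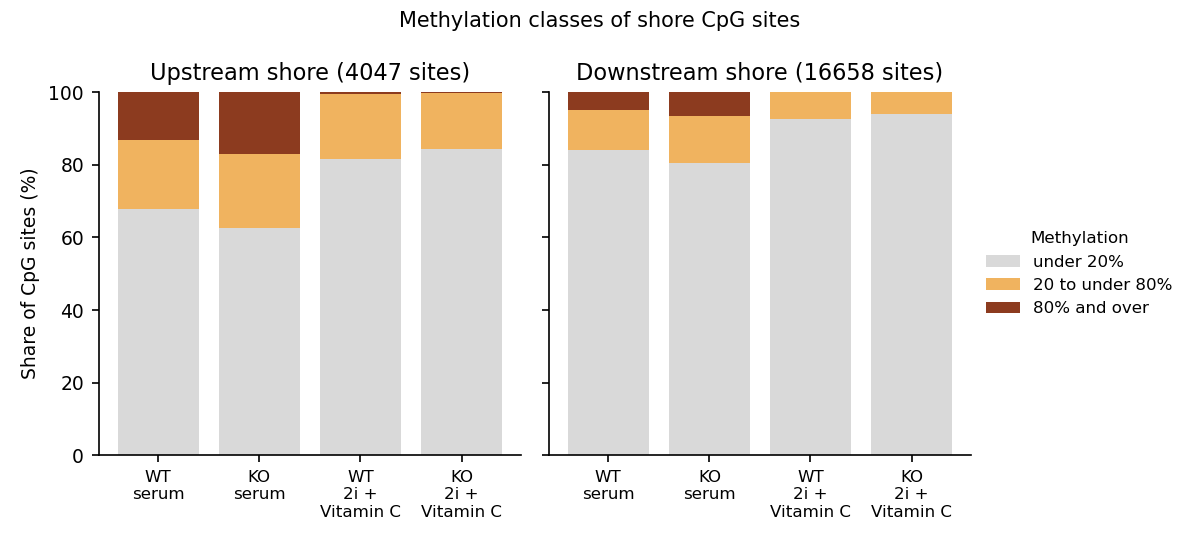
Share of shore CpG sites (%, y axis) that were under 20%, from 20 to under 80% and at 80% or more methylated in each of the 4 libraries (x axis), upstream (left) and downstream (right). In WT cells the share under 20% goes from 67.7% in serum to 81.6% in 2i upstream and from 83.9% to 92.7% downstream.

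Per gene shore, reads were pooled over the sites, tested in the same way over all 24444 windows of a gene, a side and 1 kb, and called at the same limits. Pooled levels weight a site by its reads, so the mean of the sites is given as well where it moves a call. In WT cells 198 gene shores lost methylation (14.4%, against 25.3% of all windows). Of these, 62 were upstream (21.6% of upstream gene shores) and 136 downstream (12.5% of downstream gene shores). In KO cells 278 gene shores lost methylation (20.2%, against 29.3% of all windows). Without sites 6 or 18 bp from a CCGG the losses were 182 in WT and 248 in KO cells. A gain was called at 1 gene shore in WT cells (0.0726%, against 0.00818% of all windows) and at 0 in KO cells (against 0.0164% of all windows). The 1 gain was Ggps1 upstream. Of its 5 sites 2 had a gain called, and most of the methylated reads lay at the CpG chr13:14157037, 18 bp from a CCGG, with 62.6% of 147 reads in KO serum and 65.5% of 113 reads in WT 2i. WT serum had 0 methylated of 203 reads there, which allows up to 1.48%, and KO 2i 0 of 116, which allows up to 2.59%. Ggps1 encodes geranylgeranyl diphosphate synthase and was singled out after its values were seen.

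The largest losses in WT cells came at genes of unrelated roles. Intervals in brackets are 95% Wilson intervals of the pooled reads and cover counting error only. They are too narrow even for that, since a read over several sites counts once for each site. Reads without molecular identifiers are also not independent molecules. The p-values and standard errors per gene shore are too small for the same reasons. Ccdc19 downstream (chr1:174452603-174452903, 5 sites), a gene of cilia and flagella, had 81.1% (76.6 to 85.0) in WT serum, 77.3% in KO serum, 4.23% (2.62 to 6.76) in WT 2i and 6.25% in KO 2i. Both serum libraries were thus far above both 2i libraries, and each of the 4 CpG sites printed above fell by between 65.3 and 92.2 points in WT cells (Fisher's exact test on the shore, adjusted p = 1.78e-109). Fat1 downstream, in the gene of an atypical cadherin, had 79.8% and 90.6% in WT and KO serum and 10.6% and 17.5% in WT and KO 2i, with all 5 printed CpG sites at 16.2% or less in WT 2i. En1 upstream (chr1:122497342-122497949, outside genes), the homeobox gene of the midbrain-hindbrain boundary, went from 83.0% to 14.3% in WT and from 89.5% to 15.5% in KO cells. The other two were 1700123L14Rik downstream, from 93.5% to 28.6% in WT cells, and Pabpc4l downstream, a poly(A)-binding protein gene, from 89.3% to 24.8%.

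The gene shores highest in 2i, ranked by the lower of the WT and KO levels, were all upstream. Pilra, the gene of an inhibitory immunoglobulin-like receptor, had 92.4% in WT serum, 93.6% in KO serum, 83.7% (79.3 to 87.4) in WT 2i and 71.3% (66.4 to 75.7) in KO 2i. The change in WT cells was -8.66 points, and of the printed CpG sites the third was at 91.2% in WT 2i and 70.9% in KO 2i. Olfr1257, an olfactory receptor gene, had 93.6% and 93.0% in WT and KO serum and 77.7% in KO 2i, with an interval from 68.8% to 73.1% in WT 2i. Slc25a22, a mitochondrial glutamate carrier gene, had 76.7% and 69.4% in WT and KO 2i, Fscn3, a fascin gene, 59.4% and 50.6%, and Dnase1l2, a DNase gene, 60.4% and 50.2%. The Slc25a22 and Dnase1l2 sites lay in coding exons, and the Fscn3 sites in coding exon and intron, of neighbouring or overlapping genes. Most Slc25a22 sites lay 546 to 854 bp from the 5' end of another transcript. These 5 shores had between 90.7% and 94.8% in WT serum, which is also the range of shores that lost far more, such as 1700123L14Rik.

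**Figure D4:**
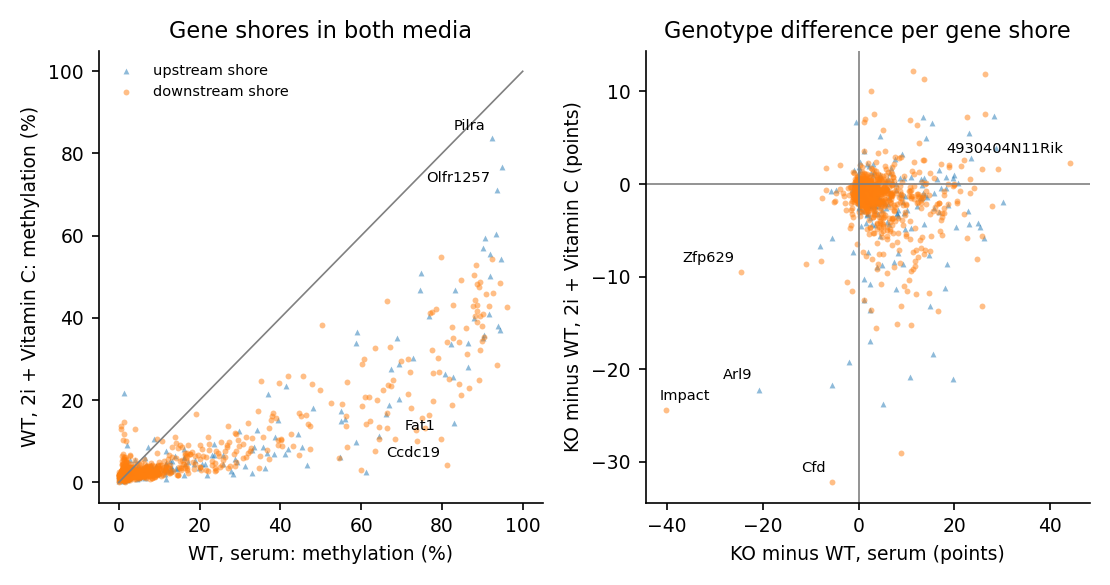
Each point is 1 of the 1377 gene shores (triangles upstream, circles downstream). Left, methylation of pooled reads in WT serum (%, x axis) against WT 2i (%, y axis), with the line of equal levels, where Ccdc19 lies at 81.1% and 4.23% and Pilra at 92.4% and 83.7%. Right, KO minus WT in serum (points, x axis) against 2i (points, y axis), where most points lie right of and below 0 and Impact lies at -40.3 and -24.4 points.

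The comparison of KO with WT cells asked whether loss of the KRAB-ZFP cluster goes with other methylation at shores. In serum, the KO library was higher at shores, as it was over all autosomal sites (mean difference 3.14 points). The mean difference over shore sites was 3.31 points, positive on each of the 19 autosomes (from 1.11 to 5.23 points), 4.27 points upstream and 3.08 points downstream. It was 10.7 points for sites between 20% and 80% in WT serum, 2.38 points for sites under 20% and 0.556 points for sites at 80% or more, classes that were set by the WT serum reads of this same comparison. A gain in KO cells was called at 341 shore sites (1.65%, against 1.81% of all sites) and a loss at 18 (0.0869%, against 0.11% of all sites), so both shares were near those of all sites. The KO library also had fewer shore sites with no methylated read, 16.3% against 27.8% in WT serum, at a higher median coverage. Of the 341 gains, 62 lay 6 or 18 bp from a CCGG, and without such sites 268 gains were called.

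In serum 32 gene shores were higher in KO cells (3.09% of all windows were) and 3 were lower (0.155% of all windows), or 29 and 2 without sites 6 or 18 bp from a CCGG. The largest gain was 4930404N11Rik downstream (chr10:80826749-80827533, 22 sites, mostly coding exon), all of whose sites lay 66 to 850 bp from the 5' end of another transcript, with 25.4% (23.6 to 27.3) in WT serum, 69.5% in KO serum, 4.30% in WT 2i and 6.54% in KO 2i. Its KO serum level stood alone above the other three libraries, and the difference of 44.0 points in serum (Fisher's exact test, adjusted p = 7.8e-211) was 2.23 points in 2i. Ruvbl2 upstream, next to the gene of an ATPase of chromatin remodelling complexes, had 41.2% in WT and 71.4% in KO serum. Dlgap4 downstream, in a gene of a postsynaptic scaffold protein, had 20.1% and 49.3%, and its printed CpG sites were higher by 33.3 to 43.2 points. The 5 other sites of Dlgap4 were at 18.8% or less in KO serum, and the mean of its 9 sites differed by 17.1 points, under the limit. Capn8 upstream, beside a calpain gene, had 31.2% and 59.9%, and Klhdc7b upstream, beside a kelch-domain gene, 44.4% and 72.8%, the latter on 72 and 114 reads.

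The 3 gene shores lower in KO serum were Impact, Zfp629 and Arl9. Impact downstream (chr18:13131766-13132140, 12 sites, intron) belongs to an imprinted gene expressed from the paternal allele. It had 41.8% (39.7 to 44.0) in WT serum, 1.52% in KO serum, 25.8% (23.8 to 27.9) in WT 2i and 1.38% (0.912 to 2.08) in KO 2i. The WT libraries were therefore far above both KO libraries in either medium, at 11 of the 12 sites, and the last site had no methylated read in any library. Impact was the only one of 10 gene shores of the imprinted gene list with a call between genotypes, beside 0.218% of all gene shores lower in KO serum and 0.581% lower in KO 2i. Zfp629 downstream, in a zinc finger gene and within 213 bp of another transcript 5' end, had 38.1% and 13.5% in WT and KO serum and 16.9% and 7.37% in WT and KO 2i. Coverage was uneven there, and the mean of its 16 sites differed by -13.6 points in serum, which is under the limit, although all 14 printed CpG sites were lower in KO serum. Arl9 upstream, next to a small GTPase gene, had 94.0% and 73.2% in WT and KO serum and 38.1% and 15.95% in WT and KO 2i. The mean of its sites differed by -18.0 points in serum, and without its site 6 bp from a CCGG the pooled difference was -13.1 points, both under the limit.

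In 2i, the KO library was lower at shores, as it was over all autosomal sites (mean difference -1.74 points). The mean difference over shore sites was -1.56 points, negative on each of the 19 autosomes (from -1.98 to -1.22 points). A loss was called at 82 shore sites (0.396%, equal to the 0.396% of all sites) and a gain at 3 (0.0145%, against 0.0843% of all sites). Of the 82 losses 31 lay 6 or 18 bp from a CCGG, and without such sites 46 losses were called. KO 2i was also the shallowest library, and 46.9% of its shore sites had no methylated read, against 20.7% in WT 2i.

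Per gene shore, 8 were lower in KO 2i (0.646% of all windows were) and 0 were higher (0.29% of all windows), or 7 and 0 without sites 6 or 18 bp from a CCGG. Cfd downstream (chr10:79354811-79354937, 8 sites, coding exon), in the gene of complement factor D, had 90.8% in WT serum, 85.3% in KO serum, 45.8% (42.6 to 49.0) in WT 2i and 13.6% (10.1 to 17.9) in KO 2i. In serum the pooled difference was -5.49 points, but the first 4 of the printed CpG sites were also lower in KO cells there, by 18.2 to 27.3 points, 3 of them on 11 reads per library. In 2i each of the 8 printed CpG sites was lower in KO cells, by 7.50 to 35.7 points (Fisher's exact test on the shore, adjusted p = 4.48e-23). Eml1 downstream, in a microtubule-binding protein gene, had 79.8% and 88.8% in WT and KO serum and 54.9% and 25.9% in WT and KO 2i, the last on 81 reads. Rhot2 upstream, beside the gene of a mitochondrial GTPase, had 55.5% and 31.8% in WT and KO 2i. Impact and Arl9 differed in the same direction as in serum, by -24.4 and -22.2 points. The other three were Ano1 (50.2% in WT 2i and 28.5% in KO 2i), Tnfaip8l2 (40.5% and 19.6%) and Ggps1, described above.

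**Figure D5:**
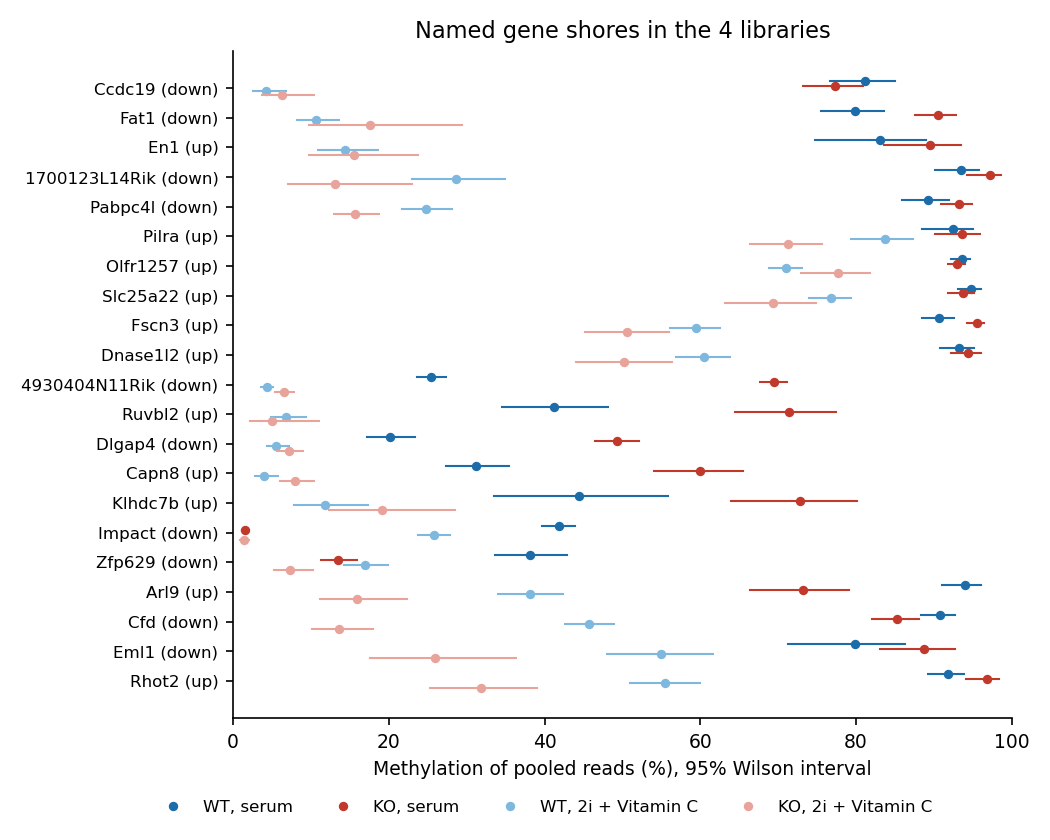
Methylation of pooled reads (%, x axis) with 95% Wilson intervals (lines) of the 21 named gene shores (y axis, up for upstream and down for downstream) in the 4 libraries (colours). Ccdc19 to Pabpc4l have both 2i libraries at 28.6% or less, Pilra to Dnase1l2 have them at 50.2% or more, and Impact has both KO libraries under 2%.

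Whether the genotype difference changed with the medium was tested per gene shore, as the difference between both KO minus WT differences in points (Wald test, Benjamini-Hochberg over all windows). It was lower in 2i at 734 gene shores (53.3%, against 49.4% of all windows) and higher at 5 (1.38% of all windows were). On simulated reads this test on pooled levels also passed windows with no change, because reads per site differ between libraries, so 734 may be too high. With each site counted once, which on the same simulated reads passed far fewer such windows, the counts were 535 and 3. The simulated reads were drawn separately for each site, from serum levels in all 4 libraries. They therefore cannot show how either test behaves with reads shared between sites or at the levels in 2i. Without sites 6 or 18 bp from a CCGG they were 637 and 5 with pooled reads and 420 and 4 with each site counted once. The median over gene shores was -2.83 points. At 4930404N11Rik the change was -41.8 points with a standard error of 1.47, and at Ruvbl2 -32.0 points with a standard error of 5.45, and both passed. The 5 shores with a higher difference in 2i were Impact (15.9 points), Zfp629 (15.1), Olfr1257 (7.27), Grhl2 (6.14) and Elfn2 (4.07), and Grhl2 and Elfn2 were named after their values were seen. Higher can mean less negative. KO minus WT went from -40.3 to -24.4 points at Impact and from -24.6 to -9.53 points at Zfp629. At Impact the KO level was 1.52% in serum and 1.38% in 2i, and the WT level fell from 41.8% to 25.8%. At Grhl2 and Elfn2 KO cells were also the lower in both media, and at Olfr1257 the difference went from -0.559 to 6.71 points. At Zfp629 and Elfn2 the test that counts each site once did not pass. At Arl9 the change was -1.41 points on pooled reads, with a standard error of 5.02, and -9.70 points with each site counted once, and neither passed.

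The remaining gene shores are given by lists, whose counts of calls are read against the shares over all gene shores. Of 67 gene shores of 60 developmental transcription factor genes, 11 lost methylation in 2i in WT cells, 14 in KO cells, and 2 were higher in KO serum. Over all 1377 gene shores the shares were 14.4% lost in WT cells, 20.2% lost in KO cells and 2.32% higher in KO serum, and the list's counts are near these shares. The list's median was 4.91% in WT serum, 7.15% in KO serum, 2.13% in WT 2i and 1.49% in KO 2i, beside medians over all gene shores of 2.44%, 4.41%, 2.33% and 1.40%. Most such shores were therefore low throughout, from 0.714% upwards in WT serum. Beside En1 upstream, the losses in WT cells included Barhl1 downstream (77.5% to 41.4%), Sox14 upstream (55.0% to 14.97%), Lhx3 downstream (46.7% to 14.2%) and Hlx upstream (45.3% to 8.63%). Nkx6-1 upstream (18.8% in WT and 41.8% in KO serum) and Sox14 upstream (55.0% and 80.3%) were the pair higher in KO serum. The best covered shore of the list by number of sites, Olig2 downstream with 35, had 1.93%, 3.85%, 1.96% and 0.903% in WT serum, KO serum, WT 2i and KO 2i.

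Hox genes, which pattern the body axis, had 13 gene shores with between 1.48% and 46.7% in WT serum and at most 4.48% in WT 2i. Hoxb4 upstream lost methylation in both genotypes (46.7% to 4.22% in WT and 55.8% to 7.43% in KO cells). Hoxb9 and Hoxc5 upstream were called in KO cells alone, although in WT cells they went from 21.4% to 4.48% and from 19.9% to 3.52%, changes under 20 points. Their best covered shore, Hoxa9 downstream with 20 sites, had 16.5% in WT serum, 20.03% in KO serum, 3.597% in WT 2i and 1.99% in KO 2i.

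Pluripotency genes had 12 gene shores, all at 14.6% or less in WT serum, and 1 loss, in KO cells, at Prdm14 downstream (26.0% in KO serum and 2.77% in KO 2i, 14.6% and 1.71% in the WT libraries). With 20.2% of all gene shores lost in KO cells, lists of this size tell little by their counts. Socs3 downstream, with 44 sites, stayed between 0.901% and 2.64% in the 4 libraries. Of 11 gene shores of early lineage and primed genes, Gata6 downstream, of the primitive endoderm factor, was called lost in KO cells alone (30.8% to 0.969%). In WT cells no shore of this list was called, although the largest change in the list was -19.2 points, just under the limit of 20. Lef1 downstream had 33 sites and stayed at 3.11% or less. Both germline shores were Hspa2 downstream, with 22 sites at 5.20% in WT serum, and Stra8 downstream, of the meiotic entry factor, which lost methylation in both genotypes (31.4% to 6.08% in WT and 41.1% to 2.72% in KO cells).

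Of the imprinted genes, Nnat downstream went from 34.4% to 17.3% in WT and from 43.3% to 20.1% in KO cells, and the latter was called. Grb10 downstream, with 69 sites, had 1.37% in WT serum and 0.913% in KO 2i. Its CpG chr11:11937171 was among the sites that gained in WT 2i, with 1.47% in WT serum, 31.1% in KO serum, 23.1% in WT 2i and 2.38% in KO 2i. The 3 shores of DNA methylation machinery genes had no call: Dnmt3a downstream, with 31 sites, was at 1.498% or less, Uhrf1 downstream at 1.27% or less, and Smug1 downstream, of a uracil-DNA glycosylase, had 35.3%, 48.9%, 24.8% and 36.1% in WT serum, KO serum, WT 2i and KO 2i. Reads were uneven at Smug1, and the means of its 6 sites were 61.2%, 59.8%, 42.0% and 32.1%, so that KO minus WT turned from 13.65 to -1.40 points in serum and from 11.35 to -9.91 points in 2i. No gene shore of the 4 from ribosomal protein genes (Rps2 downstream with 18 sites, 1.03% in WT serum) or the 2 from KAP1 pathway genes was called in any comparison, lists too small to be set against the 14.4% and 20.2% of all gene shores lost in 2i.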

How the data were processed

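RRBS-seq libraries of mouse ES cells, 1 for each of 4 groups, were analysed. Per the labels and the methods of the study, paired-end reads were trimmed with Trim Galore, mapped to mm9 with Bismark and summed per CpG dyad with a custom script, with no versions given in the sources used here. For each CpG dyad the authors deposited the read count, the methylated read count and their fraction. The counts were used here, and fractions were recomputed from them. Tables listed 2123112 to 5424640 CpG sites per library. WT serum and KO 2i tables were joined from 2 tables, and positions listed more than once (332 and 830 rows) were left out.

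Sites were assigned to the nearest 5' end of 21418 autosomal protein_coding genes, and 57 shore sites were equally near a pair of 5' ends. Two-sided Fisher's exact tests compared reads of 2 libraries per site, and per gene, side and 1 kb on pooled reads with at least 5 sites. The Benjamini-Hochberg adjustment ran over all sites or windows, and calls needed an adjusted p under 0.05 and 20 points. Named gene shores were the 5 largest losses in WT cells from serum to 2i, the 5 highest in 2i, the 5 largest gains and losses in KO cells per medium among those called, and called or best covered members of gene lists. The values of 1 list member are not reported here. Members, lists and rules were chosen with earlier results of these data known. Functions were checked on simulated data, where the test between media on pooled reads passed some unchanged windows. Python 3.11.15, NumPy 2.4.6, pandas 2.3.3, SciPy 1.17.1 and statsmodels 0.14.6 were used.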

Additional observations from a re-analysis of the deposited data

Results flagged for a closer look

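The mean KO minus WT difference at shore sites had opposite signs in the media, 3.31 points in serum and -1.56 points in 2i. This difference of means was not tested, since each group is 1 library. Over all autosomal sites the means were 3.14 points in serum and -1.74 points in 2i, so the pattern was not particular to shores. Tested per gene shore, the KO minus WT difference was lower in 2i than in serum at 734 gene shores and higher at 5 (Wald test on the pooled reads of 4 libraries). That test also passed unchanged windows on simulated reads, and with each site counted once the counts were 535 and 3. WT serum and KO 2i, the lower library of each pair, are also the libraries whose tables were joined. With the first table alone all 4 of these counts were the same. The second tables held 59 (WT serum) and 54 (KO 2i) rows with at least 10 reads, so this check could change little.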

How the results depend on the processing

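At the coverage limit of 10 reads a change of 20 points is 2 reads, and with 1 library per group no value has a replicate check. No paired analysis was possible because each group holds 1 library. Of the recomputed counts 109 stayed within 1.5 times, 12 rose and 27 fell past it, and of the recomputed levels 11 stayed within the error used and 36 moved. Counts and library means could not reverse under this rule. The gap between the sides and the rise across the shore could, and neither reversed. Mean shore methylation in WT serum, KO serum, WT 2i and KO 2i and the gap between the sides in WT serum were 9.83%, 11.05%, 5.08%, 3.87% and 9.67 points with reads pooled over sites, 12.95%, 16.59%, 5.79%, 4.31% and 6.36 points with each gene shore counted once, and 22.2%, 26.3%, 9.73%, 7.92% and 12.4 points at 1500 to 2500 bp. They were 15.6%, 18.99%, 7.09%, 5.49% and 12.8 points at a coverage minimum of 5 reads, 12.96%, 16.05%, 6.09%, 4.55% and 10.7 points at 20 reads, and 18.9%, 22.7%, 8.33%, 6.53% and 8.24 points at least 1000 bp from every transcript 5' end. Without sites 6 or 18 bp from a CCGG, an alternative chosen after seeing the data, the 4 means were 14.27%, 17.4%, 6.43% and 5.05%, with 19 site gains in WT 2i, 46 site losses in KO 2i against WT 2i and 0 gene shores gained in WT 2i. With pooled reads the rise across the shore was 15.8 points upstream and 8.67 points downstream. At a limit of 10 points, site gains in 2i were 115 in WT and 5 in KO cells, gains in KO serum 662 and losses in KO 2i 150, and at 30 points they were 18, 1, 148 and 38. With at least 3 sites per gene shore, 493 were lost in WT 2i and 634 in KO 2i, 78 were gained in KO serum, and 3 were gained and 16 lost in KO 2i against WT 2i. With at least 10 sites, 25 were lost in WT and 43 in KO cells, 0 were gained in WT 2i, 6 were gained in KO serum and 1 was lost in KO 2i against WT 2i. At 5 reads, 4 sites and 1 gene shore were gained in KO cells in 2i, and 2 gene shores in KO 2i against WT 2i. At 20 reads, 1 site was gained in KO cells in 2i, 0 gene shores were gained and 130 lost in WT 2i, 180 were lost in KO cells, 18 were gained in KO serum and 5 lost in KO 2i. By the mean of site differences, 0 gene shores were gained in WT 2i and 1 was lost in KO serum. 4930404N11Rik, Zfp629 and Slc25a22 drop out away from transcript 5' ends. There, 20 sites and 0 gene shores were gained in WT 2i and 226 sites in KO serum. The KO minus WT difference was higher in 2i at 3 gene shores by log odds ratios, and at 3 with each site counted once, also from the first table alone. Lower in 2i were 420 with each site counted once and no site 6 or 18 bp from a CCGG. The last 3 settings were chosen after seeing the data. With more sites or reads required, fewer gene shores could be tested, and whether this alone lowered the counts was not tested.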

Other observations

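Shores were compared with the first 1000 bp of the same gene and side where both held 5 covered sites, at 872 gene shores. The shore was the higher in 615 of them in WT serum, 611 in KO serum, 493 in WT 2i and 537 in KO 2i. It was at least 20 points higher in 80, 101, 24 and 18 of them, and at least 20 points lower in 4, 5, 0 and 1. At 191 gene shores with a covered window at 2000 to 3000 bp, that window was the higher in 107 in WT serum and 96 in WT 2i.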
